A study of Mus musculus with 8 samples.

Results

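The 10 genes described here encode fibronectin (Fn1), the CCN proteins Ctgf (Ccn2) and Cyr61 (Ccn1), the thrombospondins Thbs1 and Thbs2, tenascin C (Tnc), periostin (Postn), osteonectin (Sparc), osteopontin (Spp1) and matrix Gla protein (Mgp). They were chosen by gene symbol, as genes of the extracellular matrix, and are 10 of the 24639 genes in each count list. Each of the 10 symbols named 1 row, and each gene passed the filter on low counts in both assays.

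Glomerular mesangial cells (MMC) are the contractile cells that hold the capillary loops of the kidney's filter together. Primary MMC were prepared from glomeruli of wild-type (WT) C57BL/6J mice and of miR-379KO mice, in which a short deletion made with the Cas9 nickase removes miR-379 from all cells of the animal. Both genotypes were grown in the same serum-containing medium with no treatment. From each, total RNA was sequenced after poly(A) selection, and RNA bound to AGO2, the Argonaute protein that microRNAs guide to mRNAs, was sequenced after UV cross-linking, sonication and immunoprecipitation (AGO2-IP). Each genotype and assay had 2 replicates, A and B, which gives 4 groups and 8 libraries. Cultured cells lack the neighbours and flow of the glomerulus, and the age of the mice and the number behind each culture are not given in the sources used here. The p-values therefore refer only to the spread between these replicates, which the tests estimate for each gene partly from other genes. In bulk RNA fewer cells of a type and less RNA per cell cannot be told apart.

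Fibronectin is assembled on the cell surface through integrins into fibrils on which other matrix proteins are laid down, and it accumulates in the mesangium in kidney disease. Matricellular proteins such as the CCN proteins, thrombospondins, tenascin C, periostin, osteonectin and osteopontin are secreted into the matrix but act mainly by binding receptors, growth factors and proteases rather than as structural fibres. Ctgf and Cyr61 are early targets of the YAP and TAZ coactivators and of TGF-β signalling. Mgp is a small vitamin K-dependent protein that inhibits calcification and binds bone morphogenetic proteins.

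The total RNA libraries held 17168230 to 22660743 gene counts and the AGO2-IP libraries 5587611 to 17095021, of which Rn45s, the ribosomal RNA precursor, took 72.2% to 80.5%. Counts outside Rn45s and Lars2 in AGO2-IP were 1875037 and 1605632 in WT against 1308149 and 1115782 in miR-379KO. The genotypes also differed in the share of uniquely placed reads that fell outside genes, 46.6% and 49.7% in the WT AGO2-IP libraries against 73.4% and 76.4% in miR-379KO. Mir379 had no count in any total RNA library, and 0 and 4 counts in WT against 1 and 0 in miR-379KO AGO2-IP, which is at or near the floor of 3 counts and does not check the genotype labels. Of 6 mesangial markers, each averaged 10 counts or more in total RNA, with a summed level of 7142 to 11252 CPM (reads of a gene scaled to the library's size), led by Acta2, whereas Itga8 was low at 7 to 38 counts. Of the podocyte markers Nphs1 had no more than 4 counts in any total RNA library, whereas Synpo had 3561 to 10980 and Wt1 527 to 1566, and the tubule markers Slc34a1 and Umod were at 0, while the sum of the 5 endothelial markers was 0.056 to 2.12 CPM.

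The microRNA that the deletion removes and the match to its seed are given first, since AGO2 is guided to mRNAs by microRNA seeds. Capitals mark bases 2 to 8 of each mature microRNA.

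miR-379-5p: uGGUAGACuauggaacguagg
miR-18a-5p: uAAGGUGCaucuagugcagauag
miR-19b-3p: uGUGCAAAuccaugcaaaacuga

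miR-379-5p lies at chr12:109709065-109709085 on the plus strand of GRCm38.p6. The 7 bases that pair with its seed, GTCTACC, were found in the longest annotated 3′-UTR of 901 of 19195 genes (4.69%) and in 0 of the 10 genes. As a comparison, miR-18a and miR-19b, of the miR-17-92 cluster known to target Ctgf and Thbs1, were searched in the same way with miR-29a and miR-30a. GCACCTT, for miR-18a, was in 8.38% of all 3′-UTRs and in Ctgf and Thbs1. TTTGCAC, for miR-19b, was in 11.3% of them and in Ctgf, Tnc and Postn. TGTTTAC, for miR-30a, was in 14% and in Cyr61 alone of the 10, and TGGTGCT, for miR-29a, was in 13.6% and in none. The sites are printed below with the match in capitals.

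Ctgf, miR-18a, chr10:24598621-24598650 (+): aaaagttacatgtttGCACCTTtctagttg
Ctgf, miR-19b, chr10:24598618-24598647 (+): accaaaagttacatgTTTGCACctttctag
Thbs1, miR-18a, chr2:118125049-118125078 (+): accagcgctggcaatGCACCTTctaaaaac
Tnc, miR-19b, chr4:63960243-63960272 (-): tctgcaacgacttccTTTGCACcaaagaca
Postn, miR-19b, chr3:54390603-54390632 (+): ccatacagctaagtcTTTGCACagtaaaaa
Cyr61, miR-30a, chr3:145647380-145647409 (-): ctccatattggagcaTGTTTACggatgacg

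In Ctgf the miR-18a and miR-19b matches overlap. Fn1, Mgp, Sparc, Spp1 and Thbs2 held none of these matches. A match is a sequence feature and no measurement of binding.

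Matricellular transcripts were among the most abundant in these cells. Fn1 (chr1:71585473-71653280, minus strand, 8471 exon bases) had the most counts of any gene in all 4 libraries of total RNA once Rn45s and Lars2 were set aside. Thbs1, Sparc and Ctgf ranked between 2 and 17 there, and Tnc between 30 and 51. The 10 genes together took 3.86% and 3.31% of these counts in WT total RNA and 3.86% and 3.20% in miR-379KO total RNA. In AGO2-IP they took 8.17% and 8.03% in WT against 4.88% and 4.25% in miR-379KO, and Fn1 made up 54.6% to 63.6% of that share. The AGO2-IP shares of the 2 genotypes did not overlap, whereas those of total RNA did.

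**Figure D1:**
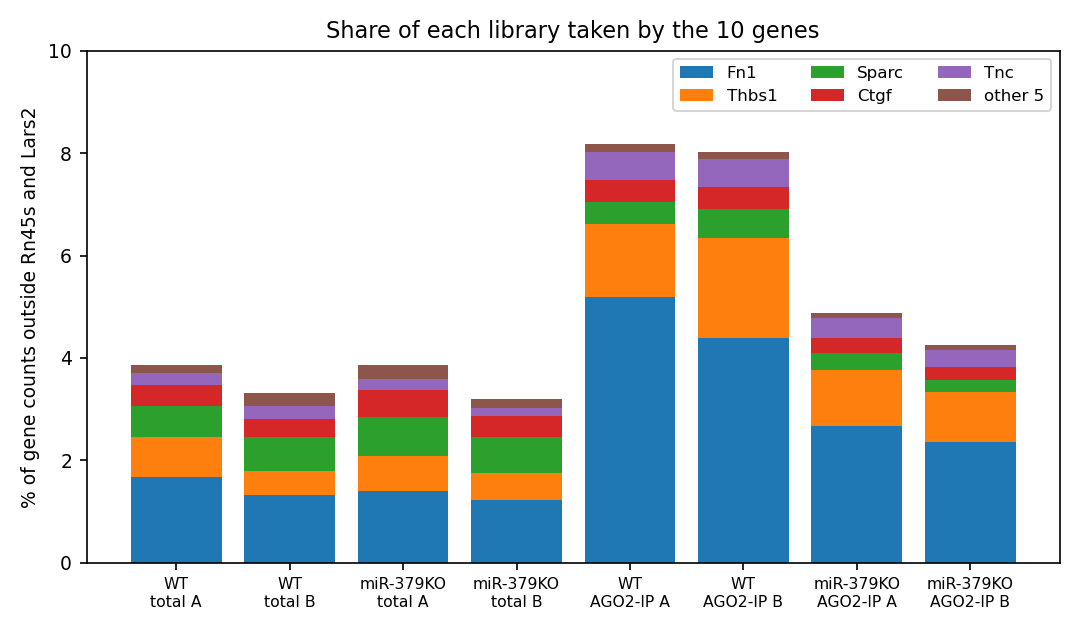
Stacked bars give the percent of gene counts outside Rn45s and Lars2 that the 10 genes took in each of the 8 libraries, coloured by gene. The bars reach 3.20% to 3.86% in total RNA, above 8% in both WT AGO2-IP libraries and below 5% in both miR-379KO AGO2-IP libraries.

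Per kilobase of exon, the order of levels in WT total RNA was led by Sparc, at 2190 ± 126 CPM per kb (SD, n = 2), followed by Fn1 at 1623 ± 298, Ctgf at 1455 ± 224 and Thbs1 at 977 ± 349. The ranges of Fn1 and Ctgf overlapped, so that their order was not set beyond their spread. Mgp at 536 ± 301, Spp1 at 459 ± 315, Cyr61 at 386 ± 151 and Tnc at 290 ± 20.1 CPM per kb came next, and from Thbs1 to Tnc each range overlapped that of the next gene in the order. Postn at 5.94 ± 0.20 and Thbs2 at 0.14 ± 0.097 CPM per kb stood far below and apart from all others. In miR-379KO total RNA Sparc again led with 2583 ± 138 CPM per kb, Ctgf stood above Fn1 (1824 ± 223 against 1468 ± 86.8), and Cyr61 at 669 ± 137 stood above Mgp at 456 ± 92.7. In both genotypes, therefore, the abundant thrombospondin was Thbs1, and Thbs2 was close to silent.

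In WT AGO2-IP the order per kilobase differed. Fn1 was highest at 1044 ± 119 CPM per kb (SD, n = 2), followed by Thbs1 at 533 ± 123, Sparc at 342 ± 75.2, Ctgf at 332 ± 2.63 and Tnc at 136 ± 1.38. Of these, the ranges of Sparc and Ctgf overlapped. Mgp was at 62.2 ± 20.1 CPM per kb in WT AGO2-IP and at 12.9 ± 0.63 in miR-379KO AGO2-IP, where its range overlapped that of Spp1, the gene below it in WT. CPM of the 2 assays were scaled apart, so these values are compared within an assay only.

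**Figure D2:**
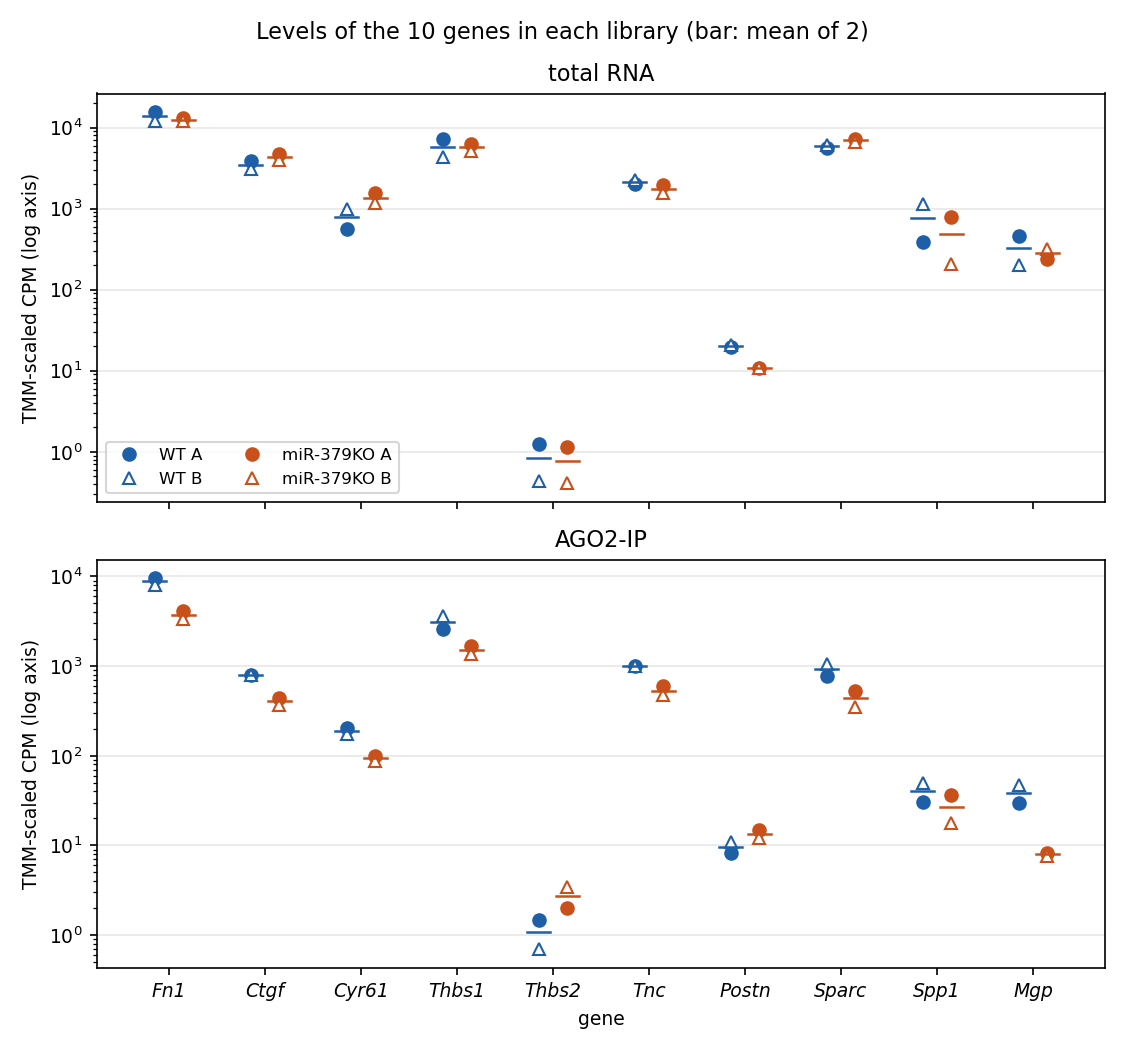
TMM-scaled CPM (log axis) are plotted for the 10 genes in total RNA (upper panel) and AGO2-IP (lower panel), with WT in blue, miR-379KO in orange, replicate A as filled circles, replicate B as open triangles and horizontal bars at the mean of 2. In AGO2-IP both miR-379KO points lie below both WT points for 7 genes and above them for Postn and Thbs2, and the points of Spp1 overlap.

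The first comparison asked whether the transcripts of these genes differed between miR-379KO and WT MMC in total RNA. None of the 10 did by edgeR's quasi-likelihood test at an adjusted p under 0.05, against 0% of the 12321 genes tested, and none did by DESeq2. Their median log2 fold change was -0.12, beside -0.01 for all genes. At the cutoff of the study's methods, a fold over 1.5 with an unadjusted p under 0.05, Postn alone of the 10 passed, in the lower direction, as did 0.349% of all genes.

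Fn1 was at 15532 and 11960 CPM in WT total RNA and at 12954 and 11914 in miR-379KO, with a log2 fold change of -0.14 ± 0.31 (SE). The groups overlapped, and the 95% interval of the difference ran from -0.90 to 0.61. With 2 cultures a group, changes within that interval were compatible with the data.

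The 2 CCN genes, which encode secreted proteins that bind integrins and heparan sulphate, were both higher in each miR-379KO total RNA library than in either WT library. Ctgf (chr10:24595442-24598683, plus strand) was at 3876 and 3116 CPM in WT against 4761 and 4005 in miR-379KO, a log2 fold change of 0.33 ± 0.29. Cyr61 (chr3:145646971-145649985, minus strand) was at 566 and 999 CPM in WT against 1553 and 1161 in miR-379KO, a log2 fold change of 0.79 ± 0.36 whose 95% interval reached from -0.08 to 1.67. For both, edgeR's adjusted p was 0.9997. Groups did not overlap in this direction for 3 of the 10 genes, Sparc being the third, and for 9.89% of all genes.

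Thrombospondins are trimeric or pentameric glycoproteins, of which thrombospondin 1 binds CD36, CD47 and latent TGF-β. Thbs1 (chr2:118111876-118127133, plus strand) was at 7160 and 4272 CPM in WT total RNA and at 6325 and 5088 in miR-379KO, the log2 fold change being -0.00 ± 0.36 with an interval from -0.88 to 0.87. The spread within WT was larger than the difference between genotypes. Thbs2 (chr17:14665500-14694262, minus strand) had 21 and 8 counts in WT total RNA and 26 and 7 in miR-379KO.

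Postn (chr3:54359267-54391041, plus strand) encodes periostin, a collagen-binding protein of connective tissue that is induced in fibrosis, and its values were the tightest of the 10 in total RNA. It was at 19.7 and 20.7 CPM in WT (331 and 378 counts) and at 10.9 and 10.7 in miR-379KO (251 and 182 counts), a log2 fold change of -0.90 ± 0.23 with an interval from -1.45 to -0.36. The groups did not overlap, but the edgeR adjusted p over all genes was 0.9997. Tnc (chr4:63959785-64047015, minus strand), which encodes a hexameric adhesion-modulating protein, was at 2035 and 2245 CPM in WT against 1967 and 1555 in miR-379KO, with a log2 fold change of -0.28 ± 0.28. Postn and Tnc were the 2 genes whose groups did not overlap in the lower direction, as was so for 9.07% of all genes.

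Sparc (chr11:55394159-55420080, minus strand), which encodes a collagen-binding glycoprotein, varied least over the 4 total RNA libraries, 1.28-fold from lowest to highest, with 5659 and 6139 CPM in WT against 7218 and 6694 in miR-379KO. Mgp (chr6:136872435-136875823, minus strand) was at 462 and 200 CPM in WT and at 241 and 322 in miR-379KO, so that both miR-379KO values lay between the WT values. Its log2 fold change in total RNA was -0.23 ± 0.42, with an interval from -1.25 to 0.79.

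Spp1 (chr5:104435111-104441053, plus strand), which encodes the integrin ligand osteopontin, varied most of the abundant genes. It was at 391 and 1130 CPM in WT total RNA and at 778 and 207 in miR-379KO, 5.47-fold from lowest to highest, with a log2 fold change of -0.63 ± 0.75. The order of the 4 libraries, WT B, miR-379KO A, WT A and miR-379KO B, was the same in AGO2-IP, where Spp1 was at 30.8 and 50.1 CPM in WT and at 36.4 and 17.6 in miR-379KO. Macrophages and injured tubule cells also express Spp1. The summed level of 5 macrophage markers in total RNA was 4.72 and 13.1 CPM in WT against 7.94 and 3.66 in miR-379KO, the same order over the 4 libraries as that of Spp1. All 5 were low, 3 of them averaging 10 counts or more. Lyz2 had 0 and 17 counts in WT against 44 and 0 in miR-379KO, and Adgre1 0 and 2 against 5 and 0. Both were thus highest in miR-379KO A, and neither had the order of the sum. The summed level of 5 tubule markers was 5.24 and 32.9 CPM in WT against 16.4 and 41.6 in miR-379KO, 2 of them averaging 10 counts or more. The part of these cells in the spread of Spp1 was not tested.

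The second comparison asked whether the same transcripts differed between genotypes in the RNA recovered with AGO2. Here 7 of the 10 were lower in miR-379KO at an adjusted p under 0.05 by edgeR's quasi-likelihood test, against 9.52% of the 13505 genes tested. Thbs2 was called higher, as were 21.4% of genes, but it passed the filter on low counts only through its miR-379KO libraries. Fn1, Ctgf, Cyr61, Thbs1, Tnc, Sparc and Mgp were the genes that fell, by 1.88-fold to 4.82-fold, and Spp1 and Postn did not pass. DESeq2 called the 7 lower and did not call Thbs2, against 6.21% of all genes called by it in either direction. The median log2 fold change of the 10 genes was -1.0, beside -0.01 for all genes. Abundant transcripts as a class were lower, however: of the 3653 tested genes that averaged 1000 or more counts in total RNA, 26.4% were called lower and 7 genes higher, with a median of -0.45, and the 7 genes that fell are among the 8 of the 10 that belong to this class.

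Some cell type markers moved with genotype in AGO2-IP as well. Of the 6 mesangial markers, Cspg4 (-1.41) and Pdgfrb (-0.94) were called lower and Itga8 (1.29) higher. Tested there were 4 podocyte, 2 endothelial, 3 macrophage and 2 tubule markers. Of these, Nphs1 (2.82), Kdr (1.34), Ptprc (2.32), Lrp2 (1.40) and Epcam (2.71) were called higher and none lower. Over all genes the shares were 21.4% higher and 9.52% lower. Except for Lrp2, the 5 called higher had at most 7 counts in any total RNA library and passed the filter only through miR-379KO. The expressed podocyte markers Wt1 (-0.65), Synpo (-0.12) and Podxl (-0.11) were not called. The summed counts of the macrophage markers in AGO2-IP were 31 and 28 in WT against 74 and 92 in miR-379KO, and those of the tubule markers 56 and 62 against 132 and 152. For the endothelial markers they were 42 and 20 against 57 and 64. The podocyte sums overlapped, at 717 and 210 against 484 and 232, and the mesangial sums were 7160 and 7737 against 4818 and 2700. None of these sums is scaled to library size, and the miR-379KO libraries were smaller. Outside Rn45s and Lars2 they held 1308149 and 1115782 counts, against 1875037 and 1605632 in WT. The lower mesangial sums therefore hold a difference in depth as well. Background in AGO2-IP, read from 5228 protein-coding genes with no count in total RNA, was also higher in miR-379KO. It was 1.15 and 0.778 counts per kb of exon in WT against 2.63 and 3.0 in miR-379KO. The part of background in these sums was not tested, nor was that of these cell types in the changes of the 10 genes.

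Fn1 was at 9556 and 8134 CPM in WT AGO2-IP (97469 and 70352 counts) and at 4105 and 3360 in miR-379KO (34991 and 26298 counts). Both miR-379KO libraries lay below both WT libraries, and Fn1 moved from the first rank in WT AGO2-IP to the second in miR-379KO. The fall was 2.37-fold, a log2 fold change of -1.24 ± 0.38 with an adjusted p of 0.0157 by edgeR. Among the 3653 abundant genes, 33 had a lower fold change.

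Ctgf was at 793 and 802 CPM in WT AGO2-IP and at 443 and 368 in miR-379KO, and Cyr61 at 205 and 176 against 99.5 and 88.3. The replicates of each group were close, differing by at most 1.2-fold, and the groups did not overlap. The log2 fold changes were -0.97 ± 0.32 for Ctgf and -1.02 ± 0.28 for Cyr61, with edgeR adjusted p-values of 0.0219 and 0.0082. In both genes the AGO2-IP fold change was thus negative and the total RNA value positive.

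Thbs1 was at 2608 and 3629 CPM in WT AGO2-IP and at 1664 and 1382 in miR-379KO, a log2 fold change of -1.03 ± 0.36 (edgeR adjusted p = 0.0306). Tnc was at 1010 and 996 CPM against 596 and 471, with -0.91 ± 0.32 (edgeR adjusted p = 0.0352). Sparc was at 777 and 1063 CPM against 527 and 354, with -1.06 ± 0.33 (edgeR adjusted p = 0.0191). For each of these 3 genes both miR-379KO libraries lay below both WT libraries, as was so in the same direction for 32.2% of all genes.

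Mgp showed the largest fall. It was at 29.6 and 47.2 CPM in WT AGO2-IP (302 and 408 counts) and at 8.21 and 7.67 in miR-379KO (70 and 60 counts), so that the lowest WT library was more than 3 times the highest miR-379KO library. The fall was 4.82-fold, with a log2 fold change of -2.27 ± 0.26, a 95% interval from -2.81 to -1.73 and an adjusted p of 4.23e-05 by edgeR. Only 0.0222% of the genes tested had a lower fold change, and among the 3653 abundant genes 2 did. Of the 147 abundant genes with exons under 1 kb, which include Mgp with 617 bases, 42.2% were called lower, with a median log2 fold change of -0.63, and none had a lower fold change than Mgp.

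Thbs2 and Postn were the low genes of the set, and the AGO2-IP counts of Thbs2 lay near background. Thbs2 had 15 and 6 counts in WT AGO2-IP and 17 and 27 in miR-379KO, or 1.47 and 0.69 against 1.99 and 3.45 CPM, a log2 fold change of 1.28 ± 0.45 (edgeR adjusted p = 0.0336). Before TMM scaling only its miR-379KO libraries reached the level the filter needs, so it entered through the group where it was high. With no filter on low counts it was not called (edgeR adjusted p = 0.0511), nor was it by DESeq2 (adjusted p = 0.246). The 5228 protein-coding genes with no count in any total RNA library give a measure of background in AGO2-IP, and it was 1.15 and 0.778 counts per kb of exon in WT against 2.63 and 3.0 in miR-379KO. At that rate the exons of Thbs2 would hold 6.81 and 4.61 counts in WT against 15.5 and 17.7 in miR-379KO, against the 15 and 6 and the 17 and 27 observed. The part of background in the rise of Thbs2 was not tested. Of the silent genes that passed the filter, 882 of 998 were called higher in AGO2-IP of miR-379KO MMC, the median being 1.94 on the log2 scale. The filter needs a minimum level only in the libraries of a single group, so a gene near background can enter through miR-379KO alone. Most silent genes did not enter, and this share and median are partly fixed by the filter.

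Postn had 85 and 94 counts in WT AGO2-IP and 125 and 94 in miR-379KO, or 8.33 and 10.9 CPM against 14.7 and 12. The AGO2-IP groups did not overlap, in the higher direction, as was so for 36.1% of all genes, whereas in total RNA Postn was lower without overlap, and the log2 fold change of 0.48 ± 0.23 in AGO2-IP did not pass (edgeR adjusted p = 0.121). The counts of Postn stood well above background, which at the same rate would give 3.91 and 2.65 counts over the exons of Postn in WT against 8.94 and 10.2 in miR-379KO. Spp1 had a log2 fold change of -0.58 ± 0.32 in AGO2-IP (edgeR adjusted p = 0.188), with overlapping groups.

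Apart from that of Mgp, the calls were lost under some alternatives. Without WT AGO2-IP replicate B the calls were Mgp and Cyr61, and without miR-379KO AGO2-IP replicate B only Mgp, so that the count fell from 8 to 2 and to 1, while calls over all genes fell from 4173 to 2351 and to 918. Over these 2 fits the log2 fold changes of Fn1, Ctgf, Cyr61, Thbs1, Tnc and Sparc lay between -1.40 and -0.77. When TMM factors were computed from genes expressed in total RNA, the median of all genes moved to 0.44, and 5 of the 10 were called, with Fn1, Cyr61 and Mgp lower and Postn and Thbs2 higher. The falls of Fn1, Ctgf, Cyr61, Thbs1, Tnc and Sparc were smaller there, with log2 fold changes between -0.80 and -0.47. Among genes averaging 50 counts or more they lay between -0.88 and -0.54. Mgp passed in each of the 13 alternatives tried, with log2 fold changes between -2.63 and -1.81 and adjusted p-values by edgeR or DESeq2 up to 0.0150. Cyr61 passed in 10 of 13, Fn1 and Sparc in 8 of 13, Ctgf, Thbs1 and Tnc in 6 of 13 and Thbs2 in 7 of 12. The alternatives include the crossed pairing, which was added after the data were seen.

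**Figure D3:**
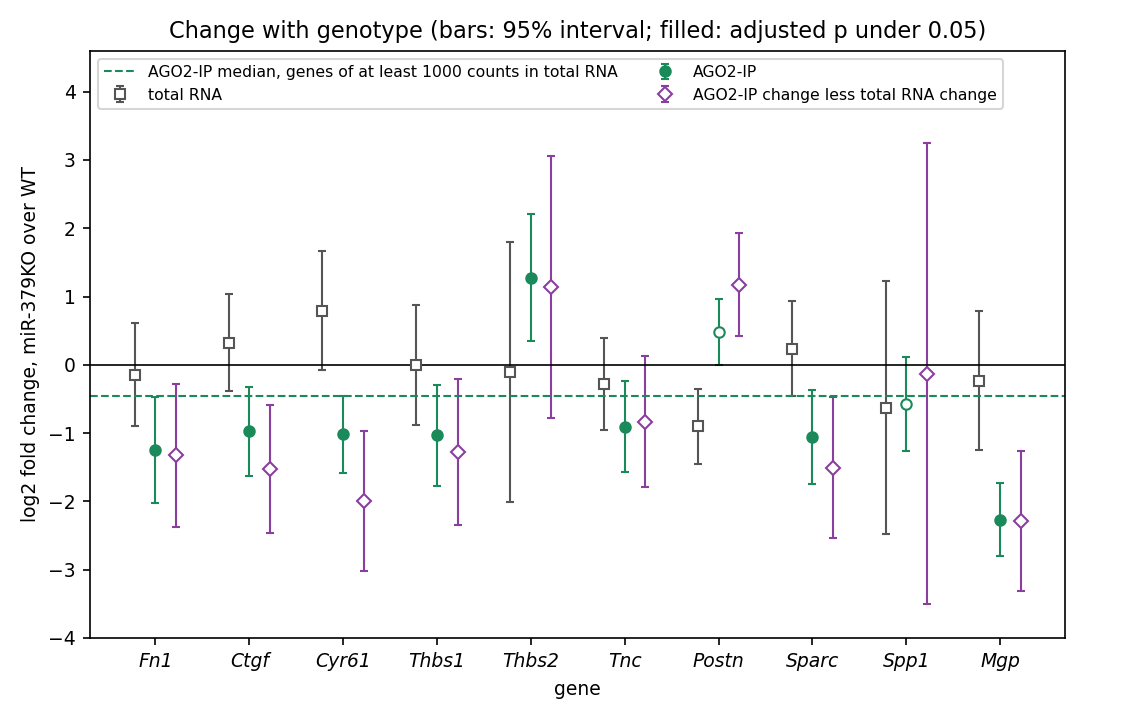
Log2 fold changes of miR-379KO over WT with 95% intervals are drawn for each gene in total RNA (grey squares), in AGO2-IP (green circles) and for the difference of these (purple diamonds), with filled symbols at an adjusted p under 0.05. The dashed line marks the AGO2-IP median of -0.45 for genes with at least 1000 counts in total RNA, a class without Thbs2 and Postn. The AGO2-IP interval of Mgp lies clear below the line, and those of Thbs2 and Postn lie above it. The intervals of Fn1 and Cyr61 end close to it, and those of Ctgf, Thbs1, Tnc, Sparc and Spp1 include it.

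The third comparison asked whether the AGO2-IP change of a gene differed from its own total RNA change, which is the interaction of genotype and assay over all 8 libraries. None of the 10 passed an adjusted p under 0.05 by edgeR, against 0% of the 17429 genes tested. At an unadjusted p under 0.05 and a fold over 1.5, 7 of the 10 passed, 6 lower and Postn higher, against 10.9% of genes lower and 4.79% higher, and DESeq2 called 5 of the 10 lower at an adjusted p under 0.05, against 0.689% of all genes in either direction, with the median of all genes at 0.29. Of the abundant genes, 35.4% passed the unadjusted cutoff in the lower direction. The largest differences were those of Mgp at -2.29 ± 0.48 and Cyr61 at -2.0 ± 0.49, each with an edgeR adjusted p of 0.229. Ctgf was at -1.52, Sparc at -1.51, Fn1 at -1.32, Thbs1 at -1.27 and Tnc at -0.84, while Postn was at 1.17 and Thbs2 at 1.14. Spp1, at -0.13 with an interval from -3.51 to 3.25, could not be placed. The median over the 10 genes was -1.30, beside 0.01 for all genes and -0.68 for the abundant ones.

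Recovery in AGO2-IP relative to total RNA was compared within each genotype. In WT, 5 of the 10 genes were at least 2-fold higher in AGO2-IP at an adjusted p under 0.05, against 35.7% of the genes tested, and none was lower, against 7.33%. These were Fn1 with a log2 ratio of 1.87 ± 0.36, Thbs1 with 1.64 ± 0.37, Tnc with 1.39 ± 0.33, Postn with 1.41 ± 0.26 and Thbs2 with 2.89 ± 0.68. The call of Thbs2 rested on 15 and 6 AGO2-IP counts, near background, and on 21 and 8 counts in total RNA. Of 2152 tested genes with no count in total RNA, 2094 were called higher too. The ratios of Ctgf (0.37), Cyr61 (0.42), Sparc (-0.19), Mgp (-0.58) and Spp1 (-1.79) did not pass. The abundant genes had a median ratio of -0.45 in WT, and Fn1, Thbs1 and Tnc were among 138 genes of this class called higher.

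In miR-379KO, Postn at 2.58 and Thbs2 at 4.03 were called higher and Ctgf at -1.16, Cyr61 at -1.58, Sparc at -1.70 and Mgp at -2.86 lower, 2 of 10 against 41.6% of genes and 4 of 10 against 19.3%. Thbs2 had 17 and 27 AGO2-IP counts here, near background, and all 2152 tested genes with no count in total RNA were called higher. Fn1 at 0.54, Thbs1 at 0.37, Tnc at 0.55 and Spp1 at -1.92 did not pass. This split depended on scaling. With TMM factors from genes expressed in total RNA it was 5 higher and 1 lower, the median of all genes moving from 0.47 to 1.53. Fn1 at 1.59, Thbs1 at 1.42 and Tnc at 1.60 were then called higher, Mgp at -1.82 was still called lower, and Ctgf at -0.11, Cyr61 at -0.53 and Sparc at -0.67 were not. With the first scaling the abundant genes had a median of -1.09 in miR-379KO. The values of the 2 genotypes are set side by side only, since the test of their difference is the interaction above.

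Recovery followed the length of the transcript. Over the 10 genes Spearman's rho between exon length and the log2 ratio was 0.84 in WT and 0.82 in miR-379KO, and over 3651 abundant genes it was 0.65 and 0.76. Genes are not independent replicates, and all points of a genotype share the same 4 libraries. In WT the 5 genes called higher are the 5 with the longest exons, from 3406 bases (Postn) to 8471 bases (Fn1). The other 5 have 617 to 2693 bases. Of the 5 called higher, Thbs2 had AGO2-IP counts near background. Poly(A) selection and ligation of sonicated fragments are different protocols, and the part of the library protocol in the ratio cannot be told apart from that of AGO2. Over the 10 genes rho between exon length and the genotype change was 0.16 in AGO2-IP and -0.10 in total RNA, and over the abundant genes it was 0.22 and -0.61. In total RNA short transcripts among the abundant genes thus tended to be higher in miR-379KO. Of the 5 shorter of the 10 genes, Ctgf, Cyr61 and Sparc (0.24) were above 0 there, and Mgp (-0.23) and Spp1 (-0.63) were below. The part of this trend in these values and in the interaction was not tested.

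**Figure D4:**
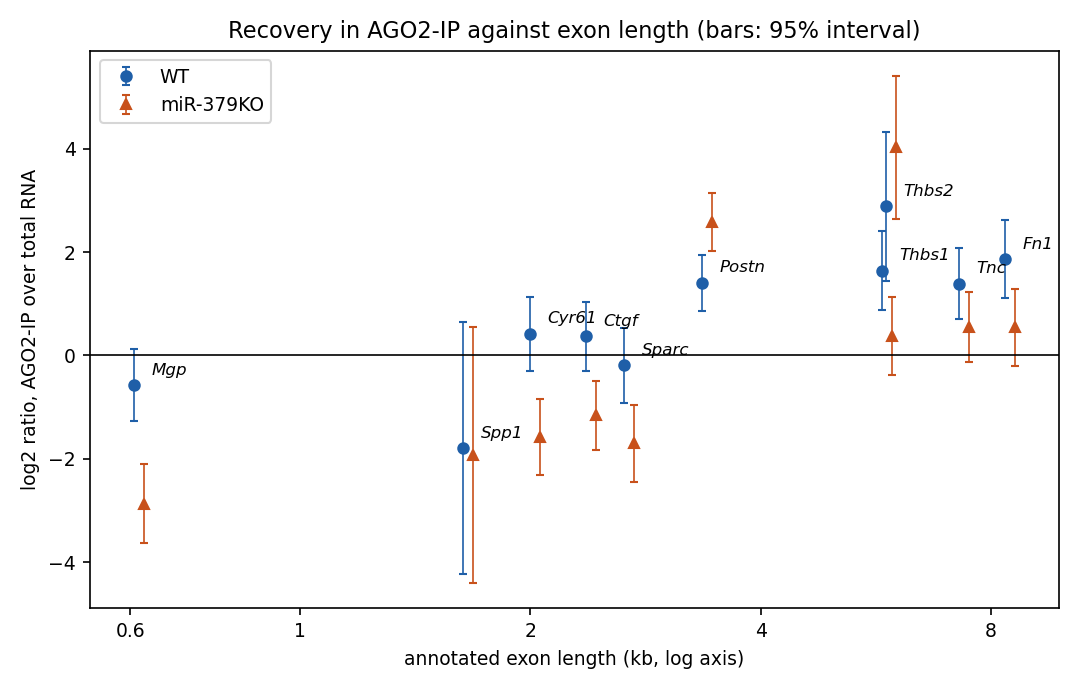
The log2 ratio of AGO2-IP over total RNA with its 95% interval is plotted against annotated exon length (kb, log axis) for the 10 genes, WT as blue circles and miR-379KO as orange triangles. The 5 genes with exons over 3 kb lie above 0 in both genotypes, and Mgp, the shortest, is at -0.58 in WT and -2.86 in miR-379KO. The AGO2-IP counts of Thbs2 lay near background.

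The difference between replicates was compared across the assays. Among the 9 genes that averaged 50 or more counts in both assays, replicate A lay on the same side of replicate B in both assays for 8 genes in miR-379KO and for 4 in WT, beside 56.4% and 53.8% of 4856 genes. Mgp was on opposite sides in both genotypes. Whether the libraries of 1 letter came from the same culture is not given in the sources used here.

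Genes that act with this set were read from lists. Of 20 other matricellular genes, 16 were tested in AGO2-IP, of which 4 were higher and 3 lower in miR-379KO, with a median log2 fold change of -0.32, beside 21.4% of all genes higher and 9.52% lower. Ecm1, a secreted glycoprotein of skin and bone matrix, fell by 1.03 on the log2 scale (366 and 306 counts in WT, 176 and 111 in miR-379KO). Sparcl1, a paralogue of Sparc, rose by 2.16, but on 2 and 5 counts against 17 and 11, and it had at most 2 counts in any total RNA library. Spock1 and Tnn rose by 1.69 and 1.37, Spock1 on 6 and 6 counts against 16 and 18 and Tnn on 8 and 7 against 17 and 17, and they had at most 1 count in any total RNA library. These 3 are low genes like the silent ones above, and they too passed the filter only through miR-379KO.

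Of 20 YAP and TAZ target genes other than Ctgf and Cyr61, 19 were tested in AGO2-IP, of which 6 were lower and none higher, with a median of -0.43, close to the 26.4% called lower and the median of -0.45 of the abundant genes. Axl, a receptor tyrosine kinase, fell by 0.97 (1440 and 1648 counts in WT, 714 and 666 in miR-379KO), Crim1 by 0.85, Amotl2, a junction protein that binds YAP, by 0.82 and Nuak2 by 0.69. In total RNA none of the 20 passed, 1 of them at an unadjusted p under 0.05, and 14 were below 0 and 6 above.

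Of 12 receptors of fibronectin and matricellular proteins, 6 were lower and 2 higher in AGO2-IP, with a median of -0.75, beside the 26.4% and -0.45 of the abundant genes. Itga5, the alpha subunit of the main fibronectin receptor, fell by 1.46, from 3946 and 3975 counts in WT to 1375 and 1151 in miR-379KO, while in total RNA its log2 fold change was 0.08 ± 0.25. Itgb3, the beta subunit of the vitronectin receptor, fell by 0.91. Cd36, a receptor of thrombospondin 1, rose by 2.11 with 9 and 10 counts against 39 and 33 and had at most 2 counts in total RNA, and Itga8 rose by 1.29. Both receptor genes that rose had few counts in total RNA and passed the AGO2-IP filter only through miR-379KO, as Thbs2 did.

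Of 5 genes that modify or bind Mgp, Ggcx, the vitamin K-dependent carboxylase, was lower in AGO2-IP with a log2 fold change of -0.72, and the median was -0.16. Bmp2 (0.61), Vkorc1 (-0.16) and Vkorc1l1 (0.10) did not pass. In total RNA no gene of the 4 lists passed by edgeR, and 2 of those tested had an unadjusted p under 0.05.

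**Figure D5:**
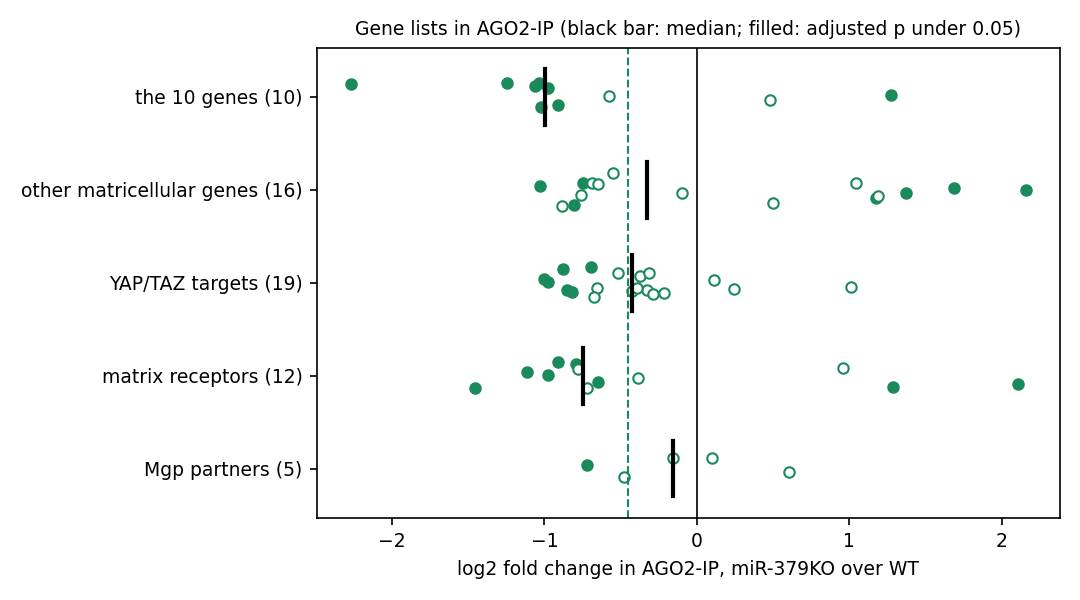
Each point is the AGO2-IP log2 fold change of a gene, filled at an adjusted p under 0.05, for the 10 genes and for 4 lists of related genes, with a black bar at the median of each list. The dashed line marks the median of -0.45 for genes with at least 1000 counts in total RNA. Medians run from -1.0 for the 10 genes to -0.16 for the genes that act on or bind Mgp.

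The genes whose levels over the 8 libraries, after subtraction of each assay's mean, were most like Fn1 among 4856 genes were Sfswap (Pearson's r = 0.996), Scaf8 (0.992) and Lamb1 (0.992), the last encoding a laminin chain of basement membranes. For Mgp they were Hsp90b1 (0.992), an endoplasmic reticulum chaperone, Slc37a3 (0.991) and Gja1 (0.983), which encodes connexin 43. These are the highest of many values over few libraries and are given as a description.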

How the data were processed

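Per the authors' methods, reads were aligned to mm10 with TopHat and counted on UCSC RefSeq genes with htseq-count (HTSeq 0.6.0) in reverse-stranded mode. The values used are the raw counts per gene that the authors deposited, not normalized, 1 list per library for 8 libraries. Rows that name no gene were left out of library sizes and tests. Reads placed in more than 1 position were not counted, so near-identical gene copies are uncertain.

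Counts were tested with edgeR 4.0.16 (R 4.3.3) by its quasi-likelihood test, using TMM factors, filterByExpr (minimum count 10) and robust dispersion estimates, and called at a Benjamini-Hochberg adjusted p under 0.05 over all genes tested. Comparisons of AGO2-IP with total RNA also needed a 2-fold difference. Genotype comparisons used the 4 libraries of an assay, and the others all 8. TMM-scaled CPM were computed from the counts. DESeq2 1.42.0 and other settings were alternatives. The fits were tested on simulated data.

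The 10 genes were all named, with up to 4 genes a list of the lowest p in AGO2-IP. The members and lists were chosen with earlier results of these data known. Symbols matched RefSeq for GRCm38.p6 for 23662 genes, with 728 by synonym and 249 unmatched. Coordinates, exon lengths, 3′-UTRs and microRNA sequences are from RefSeq, GRCm38.p6, and seed matches were searched on the transcript strand of the longest annotated 3′-UTR. One cell type marker is not reported here.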

Additional observations from a re-analysis of the deposited data

How the results depend on the processing

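In AGO2-IP the count of 8 of the 10 genes called became 5 with TMM from expressed genes (2 higher, 3 lower), 2 among genes averaging 50 counts or more (1 higher, 1 lower), 5 with a replicate block (1 higher, 4 lower) and 2 with all 8 libraries in one fit (0 higher, 2 lower). Leaving out 1 library gave 1 to 7, where the lone library of a group is assumed to vary like the others. DESeq2 called 7 there. With no filter on low counts 8 were called, all lower, while the median of all genes moved to 0.36. In total RNA the count of 0 became 1 at the study's cutoff and stayed at 0 without any 1 library. For the interaction the count of 0 became 7 at the study's cutoff, 5 with DESeq2, 1 with TMM from expressed genes and 5 with a replicate block by culture, and 0 to 3 without 1 library (1 without WT total RNA replicate A, 3 without replicate B). The cause of these moves was not tested. The counts for AGO2-IP against total RNA stayed within 1.5 times, at 4 to 6 in WT and 5 to 7 in miR-379KO without 1 library. In miR-379KO, however, the split of 2 higher and 4 lower became 5 and 1 with TMM from expressed genes and 3 and 3 among genes averaging 50 counts or more.

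The shared letters do not pair the samples by any label, and deviations of same-lettered libraries correlated at -0.106 over 10763 genes in total RNA and 0.0365 over 4971 in AGO2-IP, with 2 letters. The crossed pairing, added after the data were seen, called 0 of the 10 genes in total RNA and 9 in AGO2-IP.

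Directions turned only for fold changes that had not passed. In total RNA the log2 fold change of Thbs1 was 0.0057 with no filter on low counts, 0.037 with a replicate block, crossed or not, and 0.090 with all 8 libraries in one fit, and that of Thbs2 0.017 with all 8. Without 1 library the total RNA values ran from -0.32 to 0.060 for Fn1, -0.33 to 0.42 for Thbs1, -0.996 to 0.84 for Thbs2, -1.86 to 0.33 for Spp1 and -0.71 to 0.50 for Mgp. The interaction of Spp1 was 0.12 with DESeq2 and with RLE scaling, 0.50 with TMM from expressed genes, 0.24 among genes averaging 50 counts or more, and -1.27 to 1.16 without 1 library. In WT the ratio of AGO2-IP to total RNA was -0.045 to 0.998 for Cyr61 without 1 library and 0.17 for Sparc with TMM from expressed genes.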
